A study of Mus musculus with 6 samples.

Results

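The genes described here are 35 genes of mitosis, the spindle checkpoint and the kinetochore, named by their symbols as a fixed list. All 35 were found by symbol in the table of 37576 counted genes, and all 35 had enough reads to be tested among 16511 genes. The tissue was liver of the C57BL/6 mouse strain, taken at embryonic day 12.5, dispersed to single cells and extracted as a whole suspension. The 3 wild-type livers are numbered 2 (male), 15 and 17 (both female), and the 3 livers homozygous for the E861A allele of Adar1, whose enzyme lacks RNA editing activity, are numbered 6, 16 and 19 (all male). The mutation is present in every cell of the embryo, and both female libraries are wild type, so genotype and sex are partly tied. The labels name no litter, and where the livers are not separate animals the p-values measure only the spread between these samples. Reads counted in genes ranged from 35280460 to 43733715 per library, and a member had from 7238 to 549754 reads over the 6 libraries.

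Entry into mitosis is driven by the kinase CDK1 bound to cyclin A or B and switched on by CDC25 phosphatases. The kinetochore joins each centromere to spindle microtubules, and the spindle checkpoint holds the anaphase-promoting complex in check until every chromosome is attached. That complex then marks cyclin B and securin for destruction, which frees separase to part the sister chromatids. At this age the liver is the main site of red cell production, and its dividing cells are for the most part red cell precursors. Which cells held the RNA of these genes in the present libraries was not tested. The comparison of the genotypes asks how the absence of ADAR1 editing changes the fetal liver transcriptome.

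Most of the mitotic genes stood lower in E861A, and 1 of them moved the other way. Of 35 members, 13 fell and 1 rose at a Benjamini-Hochberg adjusted p under 0.05 in edgeR's quasi-likelihood test, adjusted over every gene tested. The same test called 4.26% of all genes lower and 7.77% higher. The median log2 fold change, E861A minus wild type, was -0.55 over the members and 0.04 over all genes tested. A total of 34 of the 35 fold changes lay below 0, and the exception was Pttg1. In 25 members each E861A library lay below each wild-type library, a pattern shown by 14.5% of all genes, in 1 member each lay above (19.4% of all genes), and in 9 members the groups overlapped. These are levels in RNA of a mixed tissue, in which fewer dividing cells and less RNA per dividing cell cannot be told apart.

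The wild-type libraries kept 1 order in most members, and the order of the E861A libraries varied. Wild type 15 was the highest of the 6 libraries in 34 members, and wild type 2 was the lowest of the 3 wild-type libraries in 32. Within the E861A group, library 19 was the lowest in 21 members and library 6 the highest in 20. The CPM of the 35 genes (counts scaled to a common library size, with TMM factors) summed to 8303, 12726 and 10237 in wild type 2, 15 and 17, and to 6105, 6198 and 6012 in E861A 6, 16 and 19. The E861A libraries lay close together and below each wild-type library, while the wild-type libraries differed from each other. The TMM factor was lowest in wild type 15 (0.877) and highest in wild type 2 (1.104), and a lower factor gives a higher CPM. The gaps between libraries thus depend in part on scaling, and the share of all genes with these orders was not computed. The median ratio of highest to lowest library within a genotype was 1.40 in wild type and 1.21 in E861A.

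**Figure D1:**
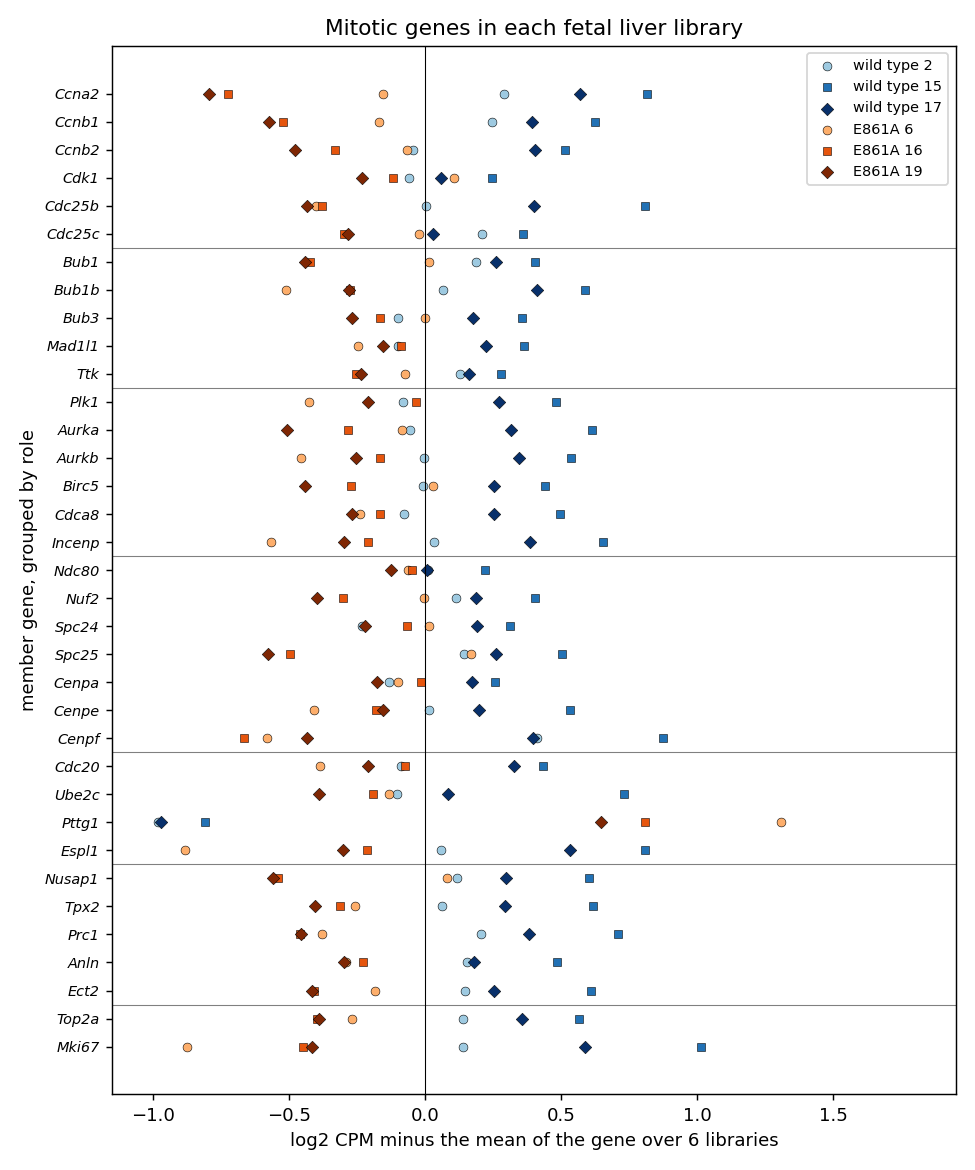
Level of each of the 35 genes in each library, as log2 CPM minus the gene's mean over 6 libraries (horizontal axis), with genes on the vertical axis grouped by role and grey lines between roles. Blue symbols are wild type and orange to brown symbols E861A, and wild type 15 lies farthest to the right in 34 genes, with Pttg1 running the other way.

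Per length, the proliferation antigen gene Mki67 stood highest in wild type at 317 RPKM, which is CPM per kilobase of exon, followed by Ccna2 at 124 and Top2a at 120.0 RPKM. The lowest was Pttg1 at 9.67 RPKM, below Mad1l1 at 13.3 RPKM. The median over the members was 52.4 RPKM in wild type and 35.3 RPKM in E861A. In E861A the lowest level was that of Cenpf, at 8.89 RPKM.

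Promoters of genes that peak in late cell cycle are known for the cell cycle homology region, whose core is TTTGAA, together with CCAAT boxes, and complexes that hold LIN54 are known to bind the former. RefSeq promoter windows of 300 bases (250 before to 50 after a start, build GRCm38.p6) were matched for 29 of the 35 members, with 33 windows, while Ccna2, Cdc25c, Aurkb, Incenp, Spc24 and Tpx2 had no entry. TTTGAA, searched on both strands, was in 23 of the 33 windows (69.7%) against 17.9% of all 32851 windows. CCAAT, searched on both strands, was in 25 of the 33 windows (75.8%) against 37.4% of all windows, and both were in 21 (63.6%) against 6.95%. TTTGAA overlapped CCAAT in 1 case. Within 50 bases of the start, TTTGAA was in 63.6% of the members' windows and in 4.94% of all windows. A match is a description of these letters and not a bound site. The 6 sequences below belong to the members with the smallest p that hold the motif, and show where it lies relative to the start. Each is 30 bases on the gene's strand, with TTTGAA, or TTCAAA where it lies on the other strand, in capitals.
Cenpf (chr1:189688067-189688096, minus strand, motif 2 bases after the start): ggcggcgggcagTTTGAAtcgctcgtgctg
Prc1 (chr7:80294434-80294463, plus strand, motif 5 bases before the start): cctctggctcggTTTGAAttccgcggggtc
Mki67 (chr7:135716460-135716489, minus strand, motif 98 bases before the start): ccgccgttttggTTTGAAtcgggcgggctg
Top2a (chr11:99024195-99024224, minus strand, motif 23 bases before the start): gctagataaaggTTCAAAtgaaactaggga
Ect2 (chr3:27153822-27153851, minus strand, motif 15 bases after the start): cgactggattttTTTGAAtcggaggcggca
Bub1b (chr2:118598231-118598260, plus strand, motif 40 bases after the start): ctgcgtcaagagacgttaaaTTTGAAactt

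Members fell both with and without the motif in a window. Of 20 members with TTTGAA in a window 8 fell, with a median log2 fold change of -0.56. Of 9 matched members without it 2 fell and 1 rose, with a median of -0.51. The member that rose, Pttg1, was among those without TTTGAA in this window.

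Of the 6 genes of cyclins, CDK1 and CDC25 phosphatases, 3 fell: Ccna2, Ccnb1 and Cdc25b. Cyclin A2 is encoded by Ccna2 (ENSMUSG00000027715, minus strand of chromosome 3, 36463788 to 36471072 in NCBIM37). Its transcript stood at 356, 512 and 432 CPM in wild type 2, 15 and 17. In E861A 6, 16 and 19 it stood at 262, 176 and 168 CPM. E861A 6 lay nearest to wild type, and the groups did not overlap. The means were 434 ± 78.1 and 202 ± 51.9 CPM (n = 3 and SD in each genotype). The log2 fold change was -1.10 (SE 0.23, edgeR adjusted p = 0.0193). Ccnb1, which encodes cyclin B1, the partner of CDK1 at mitotic entry, stood at 285, 371 and 316 CPM in wild type and at 214, 168 and 162 CPM in E861A (log2 fold change -0.84, SE 0.18, edgeR adjusted p = 0.0213). The phosphatase gene Cdc25b stood at 290.0, 507 and 382 CPM in wild type and at 219, 223 and 214 CPM in E861A (log2 fold change -0.85, SE 0.21, edgeR adjusted p = 0.0389). Its E861A libraries were nearly equal, and library 15 was the highest of wild type.

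The gene of the kinase itself did not pass. Cdk1 stood at 185, 229.5 and 202 CPM in wild type and at 208, 178 and 165 CPM in E861A, and the groups overlapped. Its log2 fold change was -0.16 (SE 0.16, edgeR adjusted p = 0.578). The ratio of Ccna2 to Cdk1 within a library, which does not depend on library scaling, was 1.89, 2.19 and 2.10 in RPKM in wild type and 1.23, 0.971 and 1.001 in E861A. The ratio of Ccnb1 to Cdk1 was 1.26, 1.32 and 1.28 in wild type and 0.840, 0.769 and 0.803 in E861A. Neither ratio overlapped between genotypes, and these pairs were chosen after their values were seen and were not tested. The second cyclin B gene Ccnb2 (-0.59, SE 0.19) and Cdc25c (-0.40, SE 0.15) had log2 fold changes below 0 and did not pass.

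Of the 5 spindle checkpoint genes, Bub1b fell, and Bub1, Bub3, Mad1l1 and Ttk did not pass, with a median log2 fold change of -0.38. BUBR1, the product of Bub1b and a part of the inhibitor that holds back CDC20, had transcript levels of 179, 257 and 228 CPM in wild type and 120.0, 141 and 141 CPM in E861A (-0.72, SE 0.17, edgeR adjusted p = 0.0343). The kinase gene Bub1 stood at 136, 158 and 143 CPM in wild type and at 121, 89.1 and 87.9 CPM in E861A. Its groups did not overlap, with E861A 6 close to wild type, and its log2 fold change of -0.55 (SE 0.17) did not pass (edgeR adjusted p = 0.0721). The kinase gene Ttk, which starts checkpoint signalling at unattached kinetochores, had a log2 fold change of -0.38 (SE 0.13), Mad1l1 of -0.34 (SE 0.15) and Bub3 of -0.30 (SE 0.16).

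Of 6 genes of mitotic kinases and the chromosomal passenger complex, which corrects wrong attachments, Incenp fell. Incenp encodes the scaffold of that complex and stood at 228, 350.2 and 290.4 CPM in wild type and at 150.4, 192 and 181 CPM in E861A (-0.73, SE 0.20, edgeR adjusted p = 0.0494). The other members of the complex did not pass: the kinase gene Aurkb had a log2 fold change of -0.60 (SE 0.17), the borealin gene Cdca8 of -0.47 (SE 0.17) and the survivin gene Birc5 of -0.46 (SE 0.18). Plk1, the polo-like kinase gene, stood at 149, 221 and 191 CPM in wild type and at 118, 155 and 137 CPM in E861A, with E861A 16 above wild type 2. Its log2 fold change was -0.46 (SE 0.19). Aurka, whose kinase acts at spindle poles, stood at 144, 229 and 186 CPM in wild type and at 141, 123 and 105 CPM in E861A (-0.60, SE 0.20). Here the groups stood apart only narrowly, between wild type 2 and E861A 6, and neither kinase gene passed.

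Of 7 kinetochore and centromere genes, Cenpf fell, and it had the smallest p of all members that fell. Cenpf (ENSMUSG00000026605, minus strand of chromosome 1, 191464478 to 191511965) encodes a large protein of the outer kinetochore that builds up in G2. Its level was 198, 272 and 196 CPM in wild type and 99.4, 93.8 and 110.0 CPM in E861A. The groups were far apart relative to the spread within E861A, with means of 222 ± 43.7 and 101 ± 8.25 CPM (n = 3 and SD in each genotype). The log2 fold change was -1.14 (SE 0.18, edgeR adjusted p = 0.00635). The 4 subunits of the NDC80 complex, which binds microtubule ends, did not pass, and their log2 fold changes ranged from -0.16 for Ndc80 to -0.57 for Spc25. Ndc80 stood at 62.3, 72.1 and 62.1 CPM in wild type and at 59.2, 59.8 and 56.8 CPM in E861A. Nuf2 stood at 94.1, 115 and 99.0 CPM in wild type and at 86.8, 70.6 and 66.1 CPM in E861A (-0.46, SE 0.16). In Ndc80 the E861A libraries lay just under the wild-type ones, and in Nuf2 libraries 16 and 19 lay further down than library 6. Cenpa, the gene of the histone variant that marks centromeres (-0.21, SE 0.15), Spc24 (-0.20, SE 0.17) and the kinesin gene Cenpe (-0.51, SE 0.18) did not pass either.

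The 4 genes of anaphase and sister separation held 1 that rose and 1 that fell. Pttg1 (ENSMUSG00000020415, minus strand of chromosome 11, 43233752 to 43239753) encodes securin, the inhibitor of separase, and Espl1 encodes separase. Pttg1 stood at 18.5, 20.9 and 18.6 CPM in wild type 2, 15 and 17 and at 90.5, 64.1 and 57.2 CPM in E861A 6, 16 and 19. Each E861A library was well above each wild-type library, and wild type was uniform. The means were 19.3 ± 1.33 and 70.6 ± 17.6 CPM (n = 3 and SD in each genotype). The log2 fold change was 1.87 (SE 0.19, edgeR adjusted p = 0.000893). Espl1 stood at 143, 239.6 and 198 CPM in wild type and at 74.1, 118 and 111 CPM in E861A, and it fell (-0.94, SE 0.25, edgeR adjusted p = 0.0456). E861A 6 held both the highest Pttg1 and the lowest Espl1 level. The ratio of Pttg1 to Espl1 within a library was 0.430, 0.289 and 0.312 in RPKM in wild type and 4.05, 1.80 and 1.71 in E861A, again a pair chosen after its values were seen.

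The activator and the conjugating enzyme of the anaphase-promoting complex did not pass. Cdc20 stood at 159, 228 and 212 CPM in wild type and at 129, 161 and 146 CPM in E861A (-0.46, SE 0.18), with E861A 16 just above wild type 2. Ube2c stood at 207, 370.0 and 236 CPM in wild type and at 203, 195 and 170.1 CPM in E861A (-0.52, SE 0.23), and wild type 15 stood well above the other 5 libraries. Its exons share 22.8% of their bases with Tnnc2 on the other strand, and whether reads were counted by strand is not given in the sources used here. Ccna2 shares 14.6% of its exon bases with Exosc9 in the same way.

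**Figure D2:**
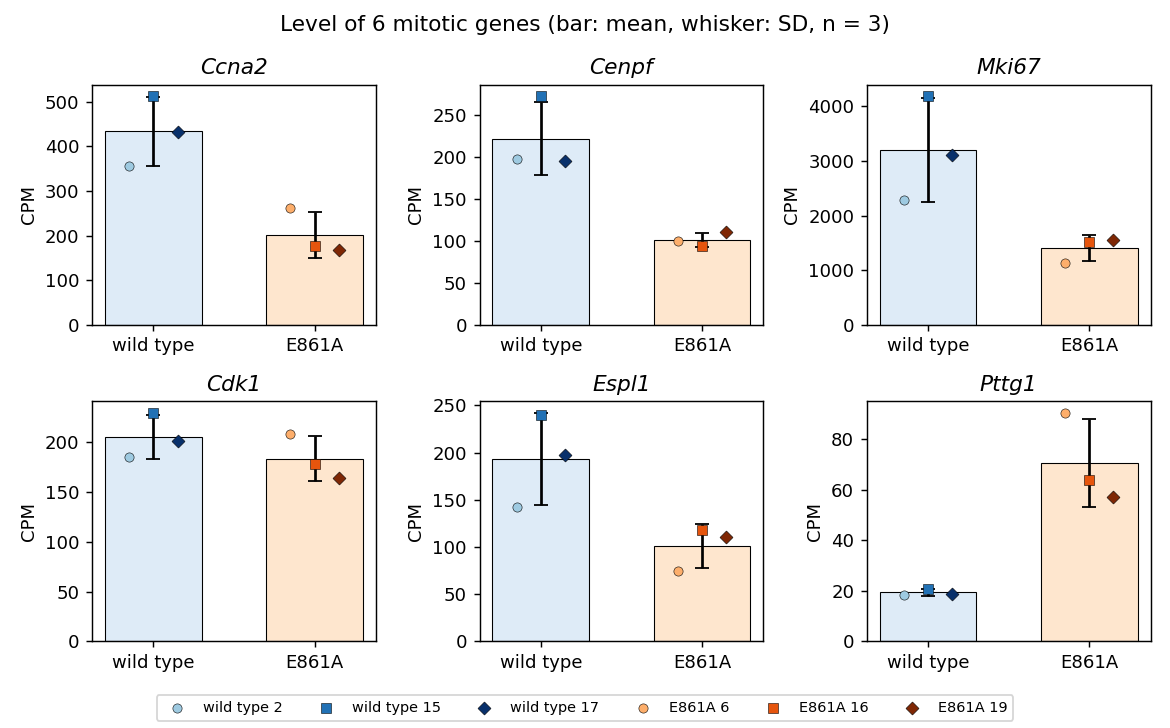
CPM of Ccna2, Cenpf, Mki67, Cdk1, Espl1 and Pttg1 (vertical axes, each starting at 0) by genotype, with a symbol for each library, bars for the mean and whiskers for the SD of 3 libraries. Cdk1 overlaps between genotypes, Pttg1 is higher in E861A at 57.2 to 90.5 CPM, and the other 4 genes are lower in each E861A library.

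Of 5 genes of the spindle and cytokinesis 4 fell, the largest share of any role with more than 2 members, and the median log2 fold change was -0.66. Prc1, which encodes the bundler of midzone microtubules, stood at 221, 313 and 249.7 CPM in wild type and at 147, 139 and 139.7 CPM in E861A (-0.88, SE 0.17, edgeR adjusted p = 0.0146). The guanine nucleotide exchange factor gene Ect2, whose product sets the cleavage plane, stood at 107, 148 and 115 CPM in wild type and at 85.2, 72.9 and 72.5 CPM in E861A (-0.68, SE 0.16, edgeR adjusted p = 0.0341). In both genes the E861A libraries were close together and apart from wild type. Anln, the gene of the contractile ring protein anillin, stood at 131, 164 and 133 CPM in wild type and at 96.1, 100.2 and 95.4 CPM in E861A (-0.55, SE 0.14, edgeR adjusted p = 0.0434). Tpx2, whose product activates Aurora A on the spindle, stood at 276, 405 and 324 CPM in wild type and at 221, 213 and 199.8 CPM in E861A (-0.66, SE 0.18, edgeR adjusted p = 0.0468). The microtubule-binding gene Nusap1 did not pass (-0.66, SE 0.22). It stood at 183, 256 and 207 CPM in wild type and at 179, 116 and 114 CPM in E861A, with E861A 6 next to wild type 2.

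Both genes of chromosome structure and proliferation fell. Mki67 (chromosome 7) encodes the Ki-67 coat protein of mitotic chromosomes and stood at 2280.1, 4183 and 3116 CPM in wild type and at 1129, 1517 and 1553 CPM in E861A. The means were 3193 ± 954 and 1399 ± 235 CPM (n = 3 and SD in each genotype). Its log2 fold change was the most negative among the members, at -1.19 (SE 0.25, edgeR adjusted p = 0.0215). Top2a, the gene of the topoisomerase that untangles sister chromatids, stood at 933, 1251 and 1082 CPM in wild type and at 702, 642 and 645 CPM in E861A (-0.72, SE 0.16, edgeR adjusted p = 0.0288). In both genes the order within wild type was library 15, then 17, then 2.

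The calls depended on the model for sex and on single libraries. Both female libraries are wild type, so with sex in the model the genotype effect rests on wild type 2 against the 3 E861A libraries. That fit and the fit of male libraries alone thus make the same contrast and are not separate checks. With sex in the model, edgeR called none of the 35 members lower (0.236% of all genes) and Pttg1 alone higher (1.93, SE 0.30, adjusted p = 0.0230; 3.21% of all genes). In that fit 8 members lay lower at an unadjusted p under 0.05, 32 lay below 0, and the median was -0.34. In the male libraries alone, with wild type 2 as the only wild-type sample, edgeR called no member in either direction (0.0447% of all genes lower, 1.68% higher), with 5 lower at an unadjusted p under 0.05 and a median of -0.33. Cenpf had a log2 fold change of -0.97 (SE 0.21, edgeR adjusted p = 0.0674) with sex in the model. In that fit Spc24 and Cenpa turned to 0.14 and 0.037. In 25 members the 3 E861A libraries, all male, lay below wild type 2, the male wild-type library, as did 29.2% of all genes tested.

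**Figure D3:**
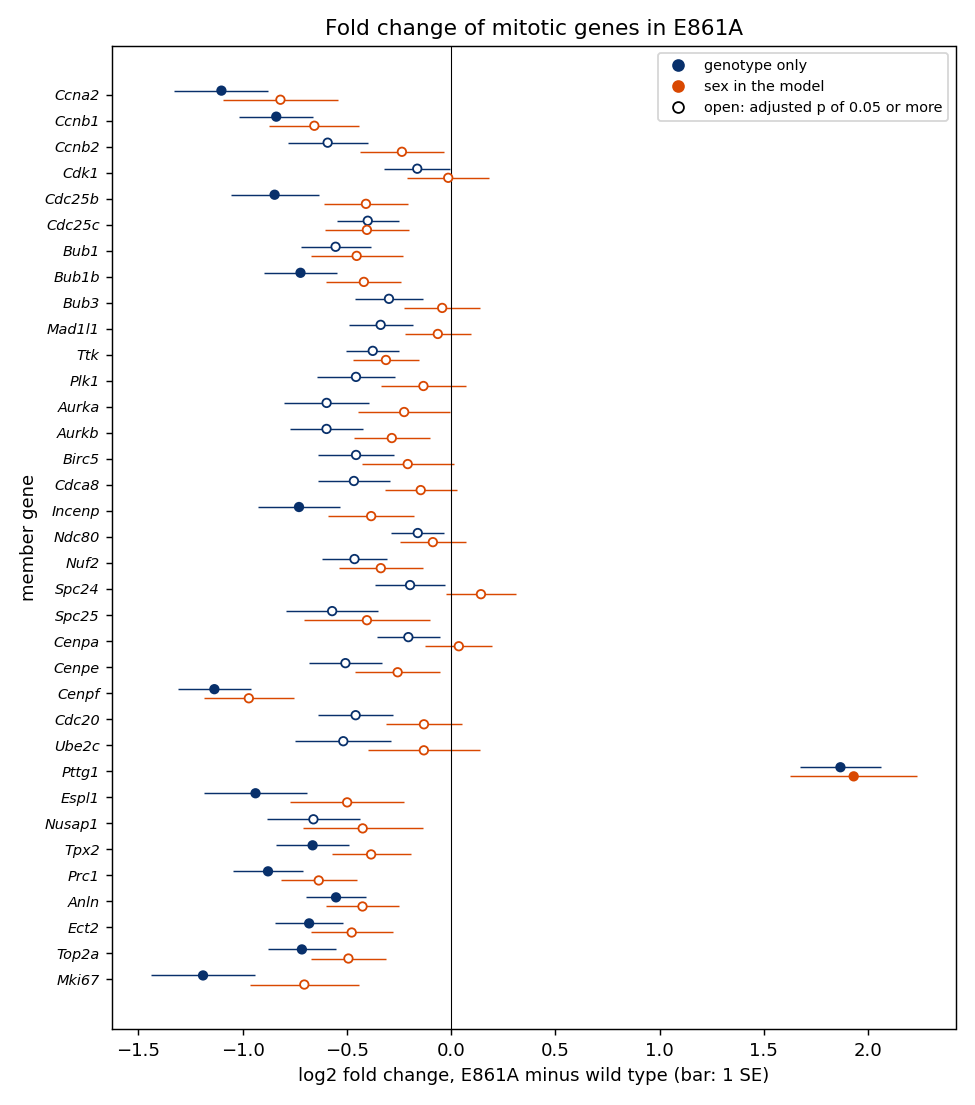
Log2 fold change of each of the 35 genes, E861A minus wild type (horizontal axis), with bars of 1 SE, from all 6 libraries with genotype alone (blue) and with sex in the model (orange). Filled symbols passed at an adjusted p under 0.05: 13 lower genes and Pttg1 with genotype alone, and Pttg1 with sex in the model.

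Leaving out wild type 2 raised the count of members that fell from 13 to 21 (8.96% of all genes). The count was 2 (1.15%) when wild type 15 was left out and 1 (0.553%) when wild type 17 was. It was 7 (2.95%), 1 (0.879%) and 7 (3.08%) with E861A 6, 16 or 19 left out. Cenpf was called lower in each of these 6 fits. Pttg1 was called higher in each, where the share of all genes called higher was 10.4%, 4.64%, 3.23%, 6.24%, 3.02% and 5.89% in the same order. The median log2 fold change of the members stayed between -0.66 and -0.44. DESeq2 called 22 members lower (9.32% of all genes) and Pttg1 higher (9.08%). In edgeR, 14 members were lower with DESeq2 size factors (5.34%), 17 with library totals only (5.12%), 10 with no filter (2.84%) and 18 with 1 CPM needed in 3 libraries (8.33%). Pttg1 was higher in each of these 4, beside 7.1%, 8.93%, 4.75% and 8.5% of all genes. In the authors' deposited table, which gives log2 fold changes for 14484 genes, 13 members were lower and 1 was higher at an adjusted p under 0.05 (4.84% and 8.44% of that table), and the 13 were those called here.

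**Figure D4:**
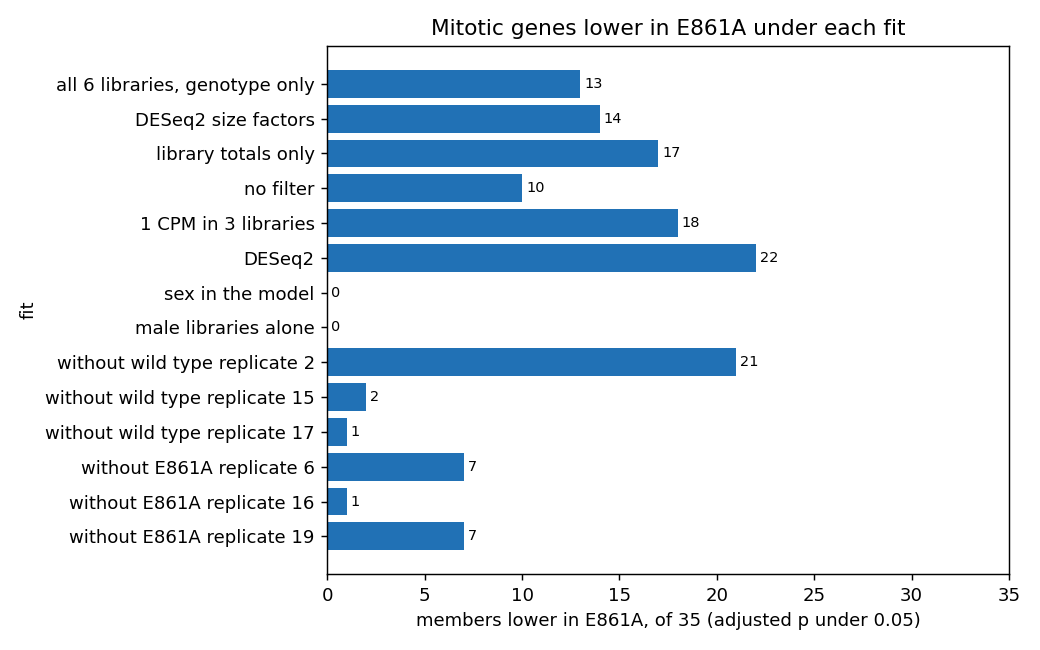
Number of the 35 genes that passed at 0.05 with a lower level in E861A (horizontal axis) in each fit (vertical axis). The count is 13 with all 6 libraries and genotype alone, 0 with sex in the model or in male libraries alone, and from 1 to 21 with a library left out.

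Cell markers moved with these libraries. The 9 erythroid markers found in the table summed to 16309, 41446 and 21758 CPM in wild type 2, 15 and 17. In E861A 6, 16 and 19 they summed to 14475, 14097 and 13401 CPM. The order of the wild-type libraries was that of the mitotic genes. Hepatoblast, macrophage and progenitor markers and the genes listed for dissociation and RNA quality, when summed, had this order too. Mesenchymal and endothelial markers did not. Of the 9 erythroid markers 3 fell, led by the anion exchanger gene Slc4a1 (-1.92, SE 0.30) and the membrane skeleton gene Epb4.2 (-1.54, SE 0.25). The 8 hepatoblast markers summed to 16153, 20371 and 19263 CPM in wild type and to 25715, 29197 and 19991 CPM in E861A, and 3 of them rose, led by Krt18 (1.51, SE 0.20) and Fgb (1.19, SE 0.23). The 8 genes listed for dissociation and RNA quality are early response and heat shock genes. They summed to 101.8, 296.6 and 207.9 CPM in wild type and to 527.2, 1124 and 1220.5 CPM in E861A. Of the 8, 5 rose, and Atf3 (3.43, SE 0.23) and Egr1 (1.84, SE 0.23) had the smallest p. The largest log2 fold change in the list was 4.54. Neither dissociation nor RNA quality was measured, and the cause of this rise was not tested. In this fit 4.26% of all genes fell and 7.77% rose. With sex as a term, none of the erythroid or hepatoblast markers passed and 5 of these 8 genes rose (0.236% of all genes lower, 3.21% higher). With a library left out, the erythroid markers that fell numbered from 2 to 7 (7 without wild type 2). The hepatoblast markers that rose numbered from 1 (without wild type 17 or E861A 16) to 6 (without E861A 19). The early response and heat shock genes that rose numbered from 2 (without wild type 17) to 5. In these fits 0.553% to 8.96% of all genes fell and 3.02% to 10.4% rose. Mesenchymal markers were highest in wild type 2, at 1353 CPM, against 375.3 and 899.1 CPM in wild type 15 and 17 and 476.5 to 1199.6 CPM in E861A, and none of the 6 passed, Des (0.62, SE 0.49) and Pdgfrb (0.33, SE 0.44) having the smallest p. Macrophage markers summed to between 168.3 and 206.3 CPM in wild type and between 159.9 and 186.1 CPM in E861A, and progenitor markers to between 243.0 and 302.2 CPM and between 270.9 and 317.3 CPM. In these lists Cd68 rose (0.78, SE 0.15), Emr1 fell (-0.89, SE 0.21), Cd34 rose (0.95, SE 0.18) and Kit did not pass (-0.52, SE 0.19). Of 6 endothelial markers, which summed to between 315.4 and 408.7 CPM in wild type and between 318.7 and 461.1 CPM in E861A, Stab2 fell (-1.29, SE 0.25) and Pecam1 rose (0.81, SE 0.16). No listed marker was at 0 in all libraries. The part of these shifts in the fall of the mitotic genes was not tested.

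Other lists of mitotic and S phase genes also had medians below 0. They were made for known roles but with earlier results of these data known, so they are not independent support. With all 6 libraries and genotype alone, 4.26% of all genes fell and 7.77% rose. Of 30 further centromere and kinetochore genes found, 6 fell and none rose (median log2 fold change -0.39), led by Casc5, the gene of the kinetochore scaffold KNL1 (-1.004, SE 0.15), and Kntc1 (-0.96, SE 0.19). Of 24 further genes of mitotic entry, spindle and cytokinesis, 7 fell and none rose (median -0.53), led by the spindle pole gene Aspm (-1.04, SE 0.16) and Ckap2l (-0.94, SE 0.15). Of 13 genes of cohesin and condensin, 3 fell and none rose (median -0.61), led by the condensin II subunit gene Ncapg2 (-1.22, SE 0.19) and the cohesin gene Rad21 (-0.80, SE 0.16). Of 15 genes of the anaphase-promoting complex and its partners, 3 fell and none rose (median -0.20), led by the subunit genes Anapc1 (-0.70, SE 0.17) and Cdc23 (-0.55, SE 0.13). Of 16 genes of S phase, 6 fell and none rose (median -0.67), led by the nucleotide synthesis gene Rrm2 (-1.42, SE 0.20) and the cyclin E gene Ccne1 (-0.91, SE 0.20). With sex in the model none of the genes in the first 4 of these lists passed and 1 of the S phase genes fell (0.236% of all genes). Among males alone none passed in any of the 5. Without wild type 17 the genes that fell numbered 1, 2, 1, 0 and 1 in the order given here (0.553% of all genes). They also numbered 1, 2, 1, 0 and 1 without wild type 15 (1.15%). Without E861A 16 they numbered 2, 3, 1, 0 and 1 (0.879%), and without wild type 2 they numbered 12, 11, 12, 4 and 10 (8.96%). Without E861A 6 they numbered 5, 7, 5, 1 and 8 (2.95%), and without E861A 19 they numbered 5, 7, 2, 2 and 2 (3.08%). The share of all genes that fell thus also varied with the library left out.

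Regulators of this programme moved both ways. Of 15 such genes, 5 fell and 1 rose, while none fell and 1 rose either with sex in the model or among males alone. None fell when wild type 17 was left out (0.553% of all genes). The count was 1 without E861A 16 (0.879%), 2 without wild type 15 (1.15%) and 3 without E861A 6 (2.95%). It was 4 without E861A 19 (3.08%) and 6 without wild type 2 (8.96%). Mybl2, which encodes B-MYB, an activator of late cell cycle genes, fell from 143, 212 and 190.3 CPM in wild type to 92.3, 96.7 and 84.9 CPM in E861A (-0.99, SE 0.18, edgeR adjusted p = 0.0111, and 0.0950 with sex as a term). Foxm1, the gene of another such activator, stood at 95.6, 119 and 105 CPM in wild type and at 57.6, 78.6 and 86.0 CPM in E861A, and its log2 fold change of -0.52 (SE 0.18) did not pass. The gene that rose was Cdkn1a, which encodes the p21 inhibitor of cyclin-dependent kinases, which stood at 7.01, 9.49 and 5.59 CPM in wild type and at 76.7, 100.05 and 74.6 CPM in E861A (3.51, SE 0.24, edgeR adjusted p = 8.03e-05). Its edgeR adjusted p was 0.00553 when sex was a term and 0.00394 among males alone.

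The authors' deposited table lists 6012 editing sites in 2048 genes, of which 9 sites lie in 6 members, in Nusap1 (3 sites), Cdc25b (2), Aurka, Cdk1, Cenpa and Nuf2 (1 each), 7 of them in introns and 2 in the 3' untranslated region of Nusap1. All 9 had at least 10 reads in each genotype and were compared by Fisher's exact test (two-sided) on the summed reads of each genotype, with p-values adjusted by Benjamini-Hochberg over 3883 sites. Of these 9, 1 was lower in E861A and none higher, against 16.7% of all tested sites lower. That site, shown because it is the single member site with a call, lies in an intron of Cenpa at position 30973259 of chromosome 5 in NCBIM37, in the 25 bases below on the plus strand with the edited base in capitals.
Cenpa site (chr5:30973247-30973271): cacatagtggctAacaaccatcaac

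The Cenpa site was edited in 9 of 177, 16 of 131 and 5 of 96 reads in wild type 2, 15 and 17, and in 1 of 139, 0 of 168 and 0 of 181 reads in E861A 6, 16 and 19. Summed, the level was 7.43% in wild type (95% Wilson interval 5.25% to 10.4%) and 0.205% in E861A (0.0362% to 1.15%), with an adjusted p of 1.02e-08 by Fisher's exact test. Each wild-type library was above each E861A library. Reads are summed over libraries here, so the test does not carry the spread between livers. The Cenpa transcript itself did not pass (-0.21, SE 0.15). The next site by p, in an intron of Nuf2, was edited in 8 of 136 reads in wild type and 0 of 109 in E861A, where 3 edited reads would have made a level of 2.75%, and missed the threshold (adjusted p = 0.0552). The intronic sites of Cdk1 (31 reads in wild type and 11 in E861A) and Nusap1 (30 and 12) had the fewest reads, so their levels are the least precise. The Cdk1 site was edited in 3 of 31 reads in wild type (9.68%) and in 2 of 11 in E861A (18.2%). Both edited E861A reads were from library 19, and this difference, in the other direction, did not pass.

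Among the other mitotic genes, the checkpoint gene Mad2l1 held 50 sites between positions 66490065 and 66491473 of chromosome 6. The authors label all 50 as 3' untranslated region, and the last lies past the gene's end at 66491027 in GENCODE M1. MAD2, the product of Mad2l1, is the checkpoint protein that binds CDC20 directly. Of the 50 sites 26 were lower in E861A and none higher, against 16.7% of all tested sites lower. Sites this close together can share reads, so they are not independent. The lists of other mitotic genes and regulators, Mad2l1 included, held 90 sites in 21 genes. Of these sites 74 were tested, and the 37 that were lower lay in 5 genes. Summed over the 50 sites, wild type 2, 15 and 17 had 5.96%, 7.12% and 6.81% of reads edited, while E861A 6, 16 and 19 had 0.167%, 0.158% and 0.264%. The groups were far apart. The most edited site, printed below with its edited base in capitals, had a level of 61.3%, 72.1% and 70.6% in wild type and no edited read in any E861A library.
Mad2l1 site (chr6:66490063-66490087, plus strand): taaatgtgtgttAttgttccatttc

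Mad2l1 RNA also fell, from 116, 137 and 134 CPM in wild type to 91.4, 77.5 and 80.3 CPM in E861A (-0.63, SE 0.14, edgeR adjusted p = 0.0245). It did not pass with sex as a term (adjusted p = 0.179 in edgeR), among males alone (0.415), or without wild type 15 (0.0950), wild type 17 (0.143) or E861A 16 (0.0837). The part of editing in this fall was not tested. Oip5, a gene of centromere assembly, held 6 sites, of which 4 were lower in E861A, against 16.7% of all tested sites. The sites at 119434272, 119435020 and 119435165 lie past the end of Oip5 at 119435248 in GENCODE M1, where the gene is on the minus strand. The authors label them as 3' untranslated region, and those at 119435020 and 119435165 were among the 4 lower sites. Oip5 RNA stood at 26.1, 35.1 and 31.2 CPM in wild type and at 44.8, 30.9 and 25.4 CPM in E861A. Its log2 fold change of 0.13 (SE 0.23) did not pass. In that gene E861A 6 was high and the groups overlapped.

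**Figure D5:**
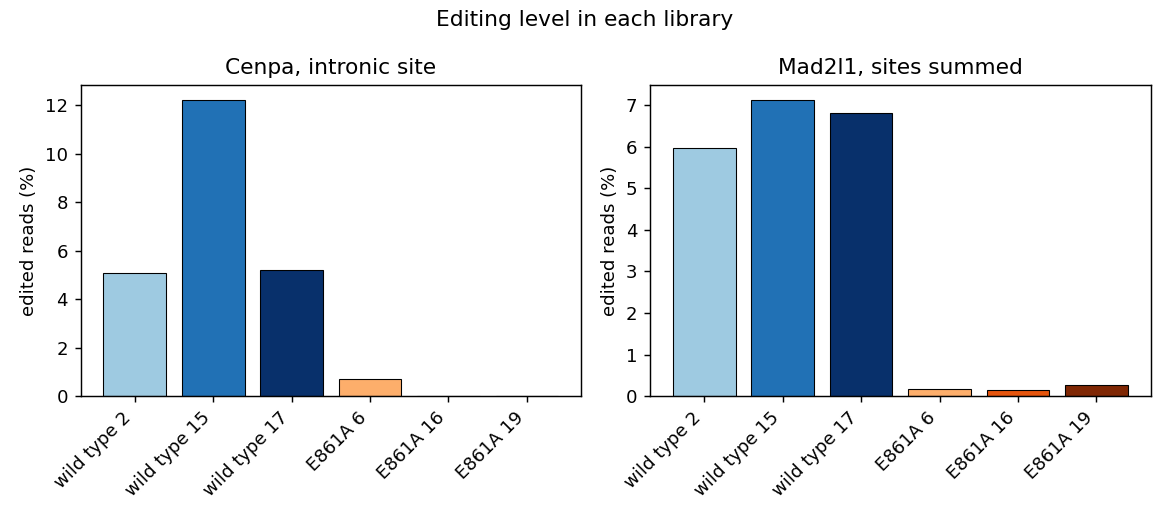
Edited reads as a percentage of covering reads (vertical axes, starting at 0) in each of the 6 libraries, for the intronic site of Cenpa (left) and summed over the 50 sites of Mad2l1 (right). Wild-type libraries (blue) lie between 5.96% and 7.12% for Mad2l1, and E861A libraries (orange to brown) at or below 0.264%.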

How the data were processed

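RNA sequencing of 3 wild-type and 3 E861A fetal livers was analysed. The raw counts deposited by the authors are whole reads per Ensembl gene. Per the file headers, the site table deposited by the authors gives the reads at each site and, as a fraction, the share of them edited, with the authors' p-value per site, and the authors' comparison table gives log2 fold changes with p-values and a moderated t and B score, as deposited. Its sign was turned to E861A minus wild type. HTSeq, limma, edgeR, TopHat2 (2.0.8) and Trimmomatic (0.30) are among the tools named in the submitters' processing notes, with builds NCBIM37 and mm9, and their order and roles are not given in the sources used here.

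Counts were filtered with filterByExpr, scaled by TMM and compared with edgeR 4.0.16 (robust quasi-likelihood F test, R 4.3.3), and this fit was tested on simulated data. For each gene the SE was the absolute log2 fold change divided by the root of F. RPKM uses union exon length in GENCODE M1. DESeq2 1.42.0 was an alternative, as were other scalings and filters, sex in the model, male libraries alone and leaving out each library. The 35 genes and the other lists were chosen with earlier results of these data known. Values per library are given for members past the threshold and for the first 2 of each role; Cdk1 was added after its value was seen. Of each other list, the 2 genes with the smallest p are named, beside Foxm1, Mybl2, Cdkn1a, Mad2l1 and Oip5. Ska2, Ska3 and Mis18a were not matched by symbol, and Adgre1 is listed as Emr1. Edited reads are the level times the coverage. Intervals and floors cover counting error only. SciPy 1.17.1, pandas 2.3.3 and NumPy 2.4.6 were used in Python 3.11.15.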

Additional observations from a re-analysis of the deposited data

How the results depend on the processing

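No paired analysis was possible because the labels name no litter and give no pairing of livers. The count of members lower in E861A, 13 with all libraries and genotype alone, was 22 with DESeq2 and 0 both with sex in the model and in the male libraries alone, and ranged from 1 to 21 with a library left out. The 1 member that rose, Pttg1, was called in 12 of 13 alternatives and had an edgeR adjusted p of 0.0544 in the male libraries alone, which gave a count of 0. The median of the members moved from -0.55 to -0.34 with sex in the model and to -0.33 in the male libraries alone, where Spc24 turned to 0.14 and 0.15 and Cenpa to 0.037 and 0.047. Oip5 ranged from -0.13 without E861A 6 to 0.28 without E861A 19. Over all genes, 703 lower and 1283 higher, the lower count was 1160 with 1 CPM in 3 libraries, 1538 with DESeq2, 39 with sex and 8 in males, and from 95 to 1502 with a library left out; the higher count was 530 with sex, 301 in males, and from 515 to 1737 with a library left out. Sites lower in members numbered 2 with at least 20 reads per genotype and 1 or 2 with a library left out. With all libraries and at least 10 reads it was 1 of 9, against 16.7% of all tested sites. The share of all sites under the other settings was not computed. The cause of these shifts was not tested. With 1 wild-type library in the male fit, its spread is assumed to be that of E861A. With sex in the model the genotype effect rests on that same wild-type library.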
